A study of Mus musculus with 18 samples.

Results

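Cystatin M/E, encoded by Cst6, was examined with 8 other genes of the same protease system in RNA from mouse epidermal cells. The 9 genes are the cystatins Cst6, Cst3 and Cstb, the cysteine proteases Lgmn, Ctsl, Ctsb, Ctsh and Ctsz, and the aspartic protease Ctsd. They were taken by symbol from a table of 52636 genes, in which each had 1 row, and all 9 passed the filter on low counts in every comparison. The group was chosen by measured values. The level of Cst6 had been seen much lower in tumors than in treated skin of mice with an epidermal deletion of Zfp36. Its values in those libraries are therefore given as a description without a test, and no member is tested in that contrast.

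The libraries came from Zfp36 fl/fl mice and from Zfp36 ΔK14 mice, which carry the same floxed alleles together with a Cre driven by the human keratin 14 promoter, all on a C57BL/6 background. Zfp36 encodes tristetraprolin, an RNA-binding protein that attaches to AU-rich elements and hastens mRNA decay. Each genotype gave mock-treated skin, skin beside tumors after DMBA and TPA (treated skin) and papillomas (tumors); DMBA is a mutagen and TPA a phorbol ester that promotes tumor growth. The labels call the source whole skin, and call the treated cells tumoral, whereas the methods describe sorted EpCAM-positive cells depleted of leukocytes, fibroblasts and endothelium, and nontumoral skin. The deposited table had 3 columns for each of the 6 groups, but mock ΔK14 replicate 3 repeated every count of replicate 2, so the pair entered as a single library, leaving 17 libraries and n = 2 for that group. The labels do not say whether replicates were separate animals, so p-values measure only the spread between these libraries.

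Library totals ran from 2808550 to 9617985 counts with a median of 5567614, the lowest being fl/fl tumor replicate 1. Zfp36 itself lay between 152 and 716 CPM (the count relative to the TMM-scaled library size) in the fl/fl libraries and between 10.1 and 38.6 CPM in the ΔK14 libraries, with no overlap at any stage. The 6 keratinocyte markers (Krt14, Krt5, Epcam, Trp63, Cdh1 and Itga6) summed to 3200 to 31100 CPM. Leukocyte markers (12 genes in 13 entries, since Itgam stands under more than 1 identifier) summed to 14.3 to 219 CPM. The defining marker Ptprc stayed at or below 1.51 CPM and was at 0 in 4 libraries. Mock replicate 1 of both genotypes stood apart from the other mock libraries, with summed keratinocyte markers of 3200 and 3310 CPM against 14100 to 14900 CPM. Among tumors, fl/fl replicate 1 stood apart from fl/fl replicates 2 and 3, with 31100 CPM against 9420 and 9240 CPM. Fewer cells of a type and less RNA per cell cannot be told apart in these bulk libraries.

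Cystatins are small proteins that block papain-like cysteine proteases by filling the active-site cleft. Cystatin M/E is secreted, is abundant in skin and its appendages, and blocks legumain, cathepsin L and cathepsin V through separate sites. Its loss in mice disturbs hair follicles and cornification, because legumain, cathepsin L and transglutaminase 3 act in sequence during formation of the cornified envelope. Cystatin C, from Cst3, is secreted by nearly all cells, while cystatin B, from Cstb, stays in the cytosol. Cathepsins B, L, H and Z degrade protein in lysosomes, legumain cleaves after asparagine, and cathepsin D is the main lysosomal aspartic protease, which cystatins do not block.

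Because Zfp36 was reduced in the ΔK14 cells, the 3′ untranslated regions were searched on the sense strand for the letters TATTTAT, a core of the AU-rich element. Only Ctsb among the 9 genes held it, 1 copy in a region of 3594 bases, and 27.6% of 20929 genes with an annotated region held at least 1. Among regions of like length the share was 58.4% for Ctsb and 56.1% for Cst6. The shorter ATTTA, which is contained in TATTTAT, was present in 4 copies in Ctsl, 3 in Cst6 and 2 in Ctsb and in none of the other 6. It was held by 65.2% of all genes, but by 98.8%, 97.1% and 97.6% of those with regions as long as these 3. The Ctsl region, of 4761 bases, is that of a longer transcript than the best-supported one, which has 1971 bases in all. No member held TTATTTATT, which 7.66% hold. The site of Ctsb is shown as the longest match and those of Cst6 as the gene with the widest range of levels, with the motif in capitals, 5′ to 3′ on the transcript.
Ctsb at position 2494: ctacccctttaTATTTATtcatgcagttt
Cst6 at position 1517: tccaagccagcATTTAcatcacatcca
Cst6 at position 2666: agtgacctttaATTTAcaggggtttaa
Cst6 at position 2696: attttattttaATTTAaatgtttttgt
Positions count from the first base after the stop codon of the longest annotated region in GENCODE for GRCm38. A match of letters is a description and does not show that a protein binds there.

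Cst6 (ENSMUSG00000024846) lies on the minus strand of chr19:5344705-5349574 in GRCm38. Its level was 29.2, 37.9 and 46.6 CPM in mock fl/fl skin and 29.8 and 63.1 CPM in mock ΔK14 skin. In treated skin it was 192, 127 and 76.0 CPM in fl/fl and 116, 253 and 190.5 CPM in ΔK14. Every treated library was thus above every mock library, in both genotypes. The 3 ΔK14 tumors had 4.25, 5.81 and 5.51 CPM, from 19, 32 and 29 counts. The fl/fl tumors split, with 4.51 CPM (9 counts) in replicate 1 and 202 and 235 CPM in replicates 2 and 3. In other words, 4 of the 6 tumors, 1 of them with intact Zfp36, had Cst6 below every skin library, and the other 2 fl/fl tumors were within the range of treated skin.

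The order of mean Cst6 levels was treated ΔK14 skin at 187 ± 68.8 CPM (SD, n = 3), fl/fl tumors at 147 ± 125 CPM (n = 3), treated fl/fl skin at 132 ± 58.1 CPM (n = 3), mock ΔK14 skin at 46.4 ± 23.6 CPM (n = 2), mock fl/fl skin at 37.9 ± 8.71 CPM (n = 3) and ΔK14 tumors at 5.19 ± 0.827 CPM (n = 3). The first 3 groups overlapped, as did both mock groups, while ΔK14 tumors lay below mock skin without overlap, as 24.3% of all genes did, and below treated skin without overlap, as 23.8% did. In the contrast that chose the gene, the log2 fold change of ΔK14 tumors over treated ΔK14 skin was -5.26 ± 0.35 (SE), or 38.4-fold lower. Against mock ΔK14 skin it was -3.24 ± 0.40, and against fl/fl tumors it was -4.98 ± 1.1. Without fl/fl tumor replicate 1, the only fl/fl tumor within the range of the ΔK14 tumors, the last value became -5.49.

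The difference between treated and mock fl/fl skin is tested, since the contrast that chose the gene did not use those libraries. The gene was still chosen with earlier results of these data known. Cst6 was 1.82 ± 0.37 log2 units above mock (3.52-fold), with an adjusted p of 0.4214 by edgeR's quasi-likelihood test over 16601 genes. It was therefore not called. DESeq2 and edgeR's exact test gave adjusted p-values of 0.00422 and 0.007468, and the quasi-likelihood test gave 0.01726 without mock fl/fl replicate 1. Over all alternatives the adjusted p ran from 0.00422 to 0.9999. The ΔK14 libraries had a difference of 2.00 ± 0.50 log2 units between treated and mock skin, given without a test. In fl/fl tumors the difference from mock was 1.95 ± 1.02 log2 units (adjusted p = 0.268), and 2.51 (adjusted p = 0.01554) without tumor replicate 1. Between fl/fl tumors and treated skin it was 0.16 ± 0.94 log2 units (adjusted p = 0.9146).

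**Figure D1:**
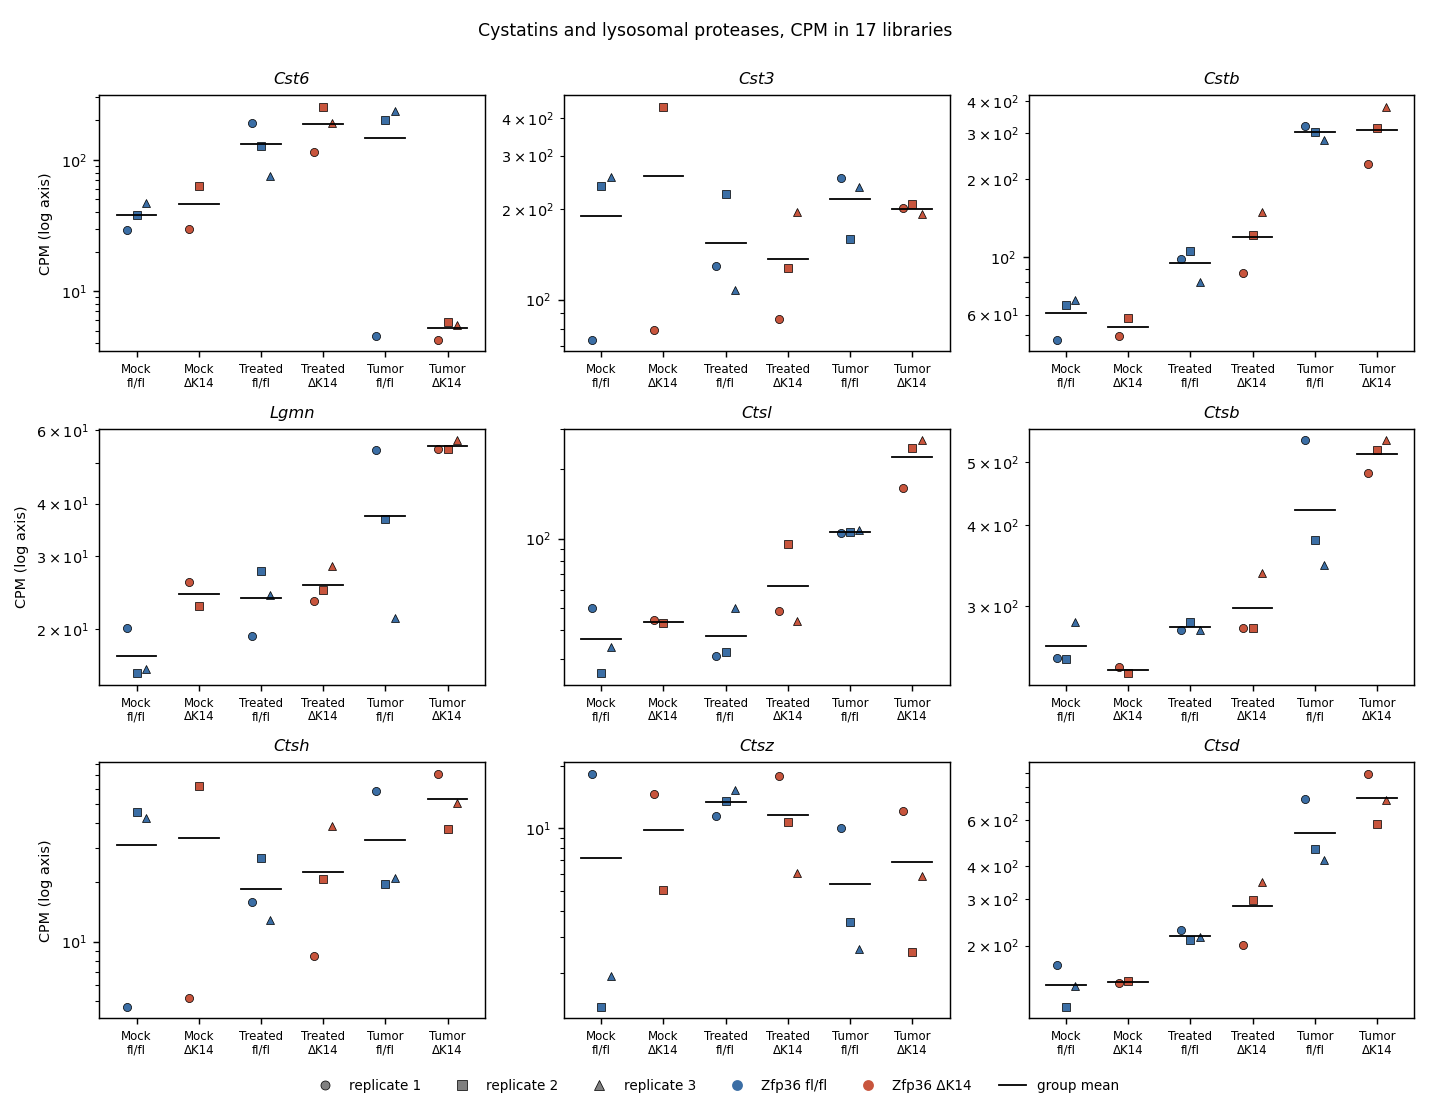
Each panel shows 1 gene in 17 libraries, with CPM on a log axis, groups along the x axis, replicate number as symbol, genotype as color and the group mean as a bar. Cst6 is at 4.25 to 5.81 CPM in the 3 ΔK14 tumors and at 4.51 CPM in fl/fl tumor replicate 1, whereas Cstb, Ctsl and Ctsd are higher in all 6 tumors than in all skin libraries.

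The gap between the inhibitor and its protease targets can be read within a library, without any scaling between libraries. Per 100 counts of Lgmn, Cst6 had 115 to 290 counts in mock skin and 314 to 1020 in treated skin. The ΔK14 tumors had 7.85, 10.7 and 9.73, and the fl/fl tumors had 8.41, 550 and 1100. Per 100 counts of Ctsl, the values were 58.3 to 147 in mock skin, 153 to 620 in treated skin, 2.57, 2.35 and 2.06 in ΔK14 tumors, and 4.29, 189 and 216 in fl/fl tumors. Cst6 counts were thus above those of Lgmn in all 11 skin libraries and 2 tumors, and far below them in the same 4 tumors. These ratios compare counts of transcripts of unequal length, so their changes between libraries can be read but not their absolute size.

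The genes most like Cst6 were ranked by Pearson's r of log2 CPM over 17 libraries among 18251 genes. They were Krt79 (r = 0.959), a keratin of the upper hair follicle and sebaceous duct, Gsdma3 (0.946) and Gsdma (0.942), pore-forming gasdermins of skin epithelium, Pdzd4 (0.94), and Defb6 (0.932), a beta-defensin. The libraries share groups and fall into clusters, so these values describe likeness only. Krt79 had 740 and 791 CPM in fl/fl tumors 2 and 3, 11.5 CPM in fl/fl tumor 1 and 23.3, 9.80 and 8.36 CPM in ΔK14 tumors. Defb6 had 192 and 234 CPM in fl/fl tumors 2 and 3, 1.0 CPM in fl/fl tumor 1 and 4.90 to 11.9 CPM in ΔK14 tumors. Gsdma3 had no count in any ΔK14 tumor. All 5 genes had their 4 lowest tumor values in the 4 tumors with low Cst6. They were chosen for likeness to Cst6 over these same libraries, so that split is no separate evidence.

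Other markers of the upper follicle and sebaceous gland parted the same tumors. Scd1, a desaturase abundant in sebocytes, was at 3210 and 6080 CPM in fl/fl tumors 2 and 3, 196 CPM in fl/fl tumor 1 and 129 to 206 CPM in ΔK14 tumors. Plin2, which coats lipid droplets, was at 411 and 491 CPM in the former and at 70.2 to 144 CPM in the other 4 tumors. Krt17, the remaining marker of that list, did not part them, with 1240 to 2120 CPM in all 6 tumors. The sum of the 6 keratinocyte markers was 24400 to 31100 CPM in the 4 tumors with low Cst6 and 9240 and 9420 CPM in those with high Cst6, and most of it came from Krt14 and Krt5. Trp63 (479 to 691 CPM) and Cdh1 (610 to 888 CPM) did not part these tumors, and Epcam was lowest in fl/fl tumor 1, at 176 CPM, and highest in fl/fl tumor 2, at 466 CPM. The summed upper follicle and sebaceous markers (4 genes, none at 0, with Krt79 among them) were 6480 and 8810 CPM in fl/fl tumors 2 and 3 and 1500 to 1980 CPM in the other 4. In treated skin, where each library had more Cst6 than each mock library, the sum of the 4 was 1350 to 3100 CPM, against 849 to 1230 CPM in mock skin without overlap. Krt17 had means of 417 CPM in mock and 951 CPM in treated fl/fl skin, and of 403 and 1110 CPM in ΔK14 skin. Krt79 had means of 239 and 503 CPM in fl/fl skin, with overlap (71.9 to 344 CPM in mock, 187 to 745 CPM in treated). Its means in ΔK14 skin were 108 and 951 CPM, without overlap. Scd1 overlapped, at 296 to 469 CPM in mock and 293 to 608 CPM in treated skin, as did Plin2, and none of the 4 was called between treated and mock skin. The part of cell composition in the Cst6 values was not tested.

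**Figure D2:**
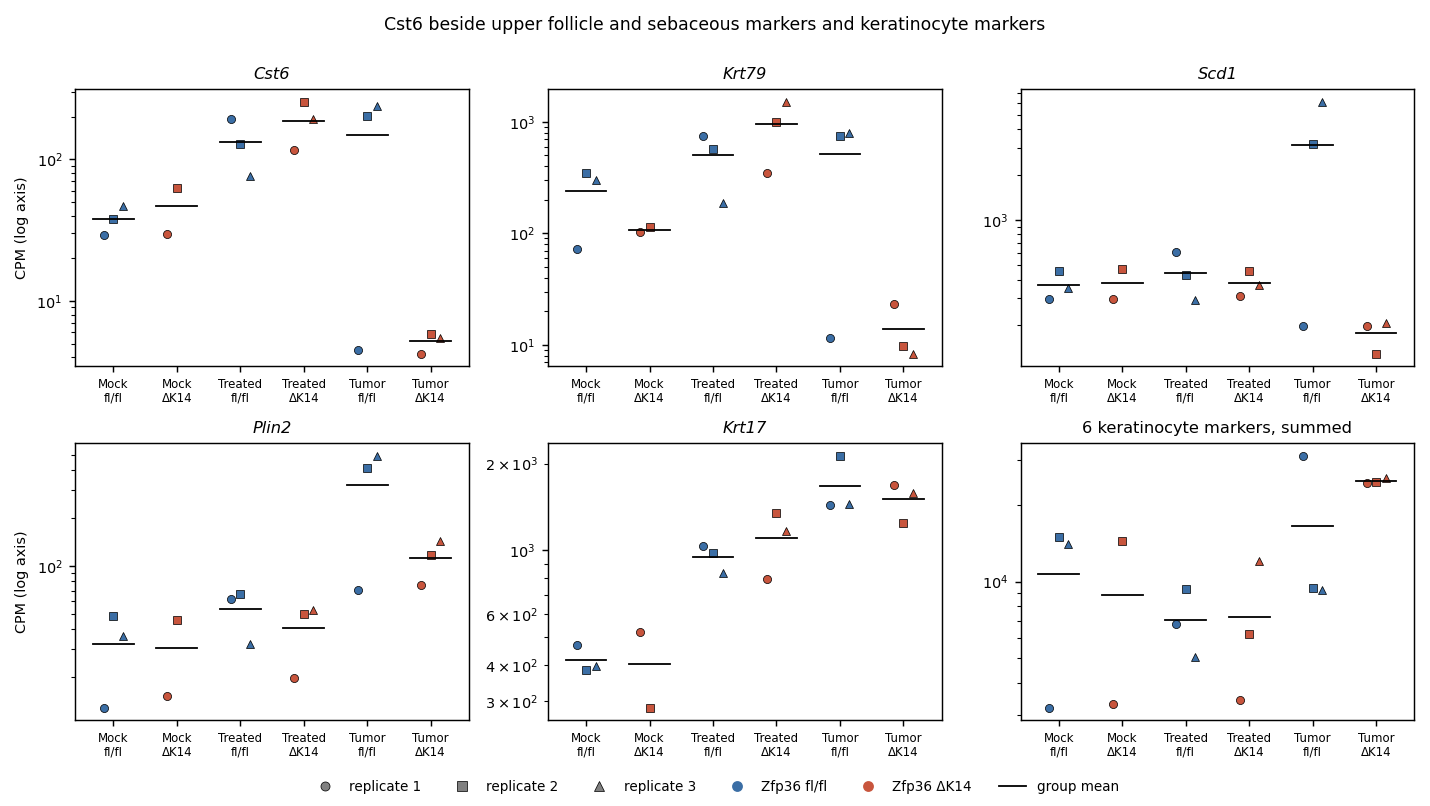
CPM on a log axis for Cst6, the 4 upper follicle and sebaceous markers, and the sum of 6 keratinocyte markers, by group, with symbols for replicates and bars for group means. Fl/fl tumors 2 and 3 are high in Cst6, Krt79, Scd1 and Plin2, while fl/fl tumor 1 (Cst6 4.51 CPM) lies with the ΔK14 tumors.

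The other inhibitors did not follow Cst6. Cstb (ENSMUSG00000005054, plus strand, chr10:78425669-78427622) stood at 48.0, 65.6 and 68.3 CPM in mock fl/fl skin, 98.0, 106 and 80.2 CPM in treated fl/fl skin and 320, 304 and 283 CPM in fl/fl tumors. In ΔK14 mice it was at 49.5 and 58.0 CPM in mock skin, 87.0, 121 and 149 CPM in treated skin and 229, 314 and 378 CPM in tumors. The 3 stages did not overlap in either genotype. Cstb rose in fl/fl tumors over mock skin by 2.29 ± 0.25 log2 units (4.88-fold, adjusted p = 0.008162) and over treated skin by 1.65 ± 0.17 (3.14-fold, adjusted p = 0.001717). In ΔK14 tumors it rose over mock skin by 2.42 ± 0.32 log2 units (5.34-fold, adjusted p = 0.0104).

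Cst3 (ENSMUSG00000027447, minus strand, chr2:148871722-148875692) showed no such order. Its levels were 73.6, 237 and 255 CPM in mock fl/fl skin, 79.6 and 434 CPM in mock ΔK14 skin, 129, 224 and 108 CPM in treated fl/fl skin and 86.0, 127 and 195 CPM in treated ΔK14 skin. Tumors had 252, 158 and 235 CPM in fl/fl and 201, 208 and 192 CPM in ΔK14. The low mock values were those of replicate 1 in each genotype, and all stages overlapped. The log2 differences of tumors from mock skin were 0.17 ± 0.46 in fl/fl (adjusted p = 0.85) and -0.45 ± 0.61 in ΔK14 (adjusted p = 0.6393). The ΔK14 difference rested on the pair of mock libraries. It became 1.32 (called higher) without mock replicate 2 and -1.15 (called lower) without mock replicate 1, each leaving 1 mock library that is assumed to vary like the tumors.

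Of the proteases, Ctsl (ENSMUSG00000021477, minus strand, chr13:64359337-64370890) stepped up at the tumor stage. It was at 50.1, 25.9 and 33.7 CPM in mock fl/fl skin, 30.9, 32.0 and 49.7 CPM in treated fl/fl skin and 105, 107 and 109 CPM in fl/fl tumors. The ΔK14 libraries had 44.1 and 42.9 CPM in mock skin, 48.5, 94.8 and 43.6 CPM in treated skin and 166, 247 and 268 CPM in tumors. Mock and treated skin overlapped, and tumors lay above both. Ctsl rose in fl/fl tumors by 1.51 ± 0.31 log2 units over mock (adjusted p = 0.04279) and by 1.48 ± 0.23 over treated skin (adjusted p = 0.005569), and in ΔK14 tumors by 2.28 ± 0.31 over mock (adjusted p = 0.0107). An antisense gene, Gm47123, and a pseudogene, Gm49230, overlap Ctsl, and use of strand in counting is not stated.

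Ctsd (ENSMUSG00000007891, minus strand, chr7:142375911-142388038) stood at 169, 117 and 140 CPM in mock fl/fl skin, 229, 209 and 215 CPM in treated fl/fl skin and 717, 464 and 423 CPM in fl/fl tumors. It was at 144 and 147 CPM in mock ΔK14 skin, 201, 299 and 350 CPM in treated ΔK14 skin and 896, 578 and 712 CPM in ΔK14 tumors. As with Cstb, the 3 stages did not overlap in either genotype. Ctsd rose in fl/fl tumors by 1.87 ± 0.30 log2 units over mock (adjusted p = 0.02429) and by 1.26 ± 0.23 over treated skin (adjusted p = 0.009113), and in ΔK14 tumors by 2.23 ± 0.31 over mock (adjusted p = 0.01168). Gm49369 overlaps it on the same strand.

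Ctsb (ENSMUSG00000021939, plus strand, chr14:63122462-63145923) varied little within each stage. Mock and treated skin of both genotypes held 237 to 338 CPM, fl/fl tumors held 539, 379 and 347 CPM and ΔK14 tumors held 480, 521 and 539 CPM. All 6 tumors were above all 11 skin libraries. Ctsb rose in ΔK14 tumors over mock by 1.01 ± 0.24 log2 units (2.01-fold, adjusted p = 0.03877), just past the 2-fold limit, and was not called in fl/fl tumors (0.66 ± 0.26 over mock, adjusted p = 0.1591). Fdft1 overlaps it on the opposite strand.

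Lgmn (ENSMUSG00000021190, minus strand, chr12:102394084-102439813), which encodes legumain, a target of cystatin M/E, was at 15.7 to 28.4 CPM over the 11 skin libraries. Tumors had 53.7, 36.8 and 21.3 CPM in fl/fl and 54.1, 54.1 and 56.6 CPM in ΔK14. The ΔK14 tumors and fl/fl tumor 1 were nearly equal, and the other fl/fl tumors were lower. Lgmn rose in ΔK14 tumors over mock by 1.08 ± 0.25 log2 units (adjusted p = 0.03652) and was not called in fl/fl tumors (1.06 ± 0.37, adjusted p = 0.1279).

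Ctsh (ENSMUSG00000032359, plus strand, chr9:90054152-90076089), an aminopeptidase among the cathepsins, varied widely within groups. Mock replicate 1 had 4.66 CPM in fl/fl and 5.14 CPM in ΔK14, against 42.5 to 62.0 CPM in the other mock libraries. Treated skin had 8.43 to 38.5 CPM and tumors 19.7 to 71.3 CPM, so all stages overlapped and no comparison of all libraries called it. Ctsz (ENSMUSG00000016256, minus strand, chr2:174427493-174439039), a carboxypeptidase, ran opposite to Ctsh in mock skin. It had 18.3 and 14.6 CPM in replicate 1 of the 2 genotypes and 1.38 to 5.05 CPM in the other mock libraries. It was the only member lower in fl/fl tumors (10.03, 3.51 and 2.62 CPM) than in treated fl/fl skin (11.4, 13.6 and 15.3 CPM) without overlap, at -1.46 ± 0.47 log2 units (adjusted p = 0.05543). DESeq2, the exact test and a fit without the low-count filter put that adjusted p at 0.02376, 0.02396 and 0.00403. Nelfcd overlaps Ctsz on the opposite strand.

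Over the 9 members, tumors differed from mock skin in fl/fl mice by called rises in 3 (Cstb, Ctsl and Ctsd) and by no called fall, where 4.11% of 15394 genes tested were called, 2.22% of them as higher. The median log2 change was 1.06 for the members and -0.05 for all genes. The groups did not overlap in 5 members, all higher, against 15.5% of all genes in that direction. Without mock fl/fl replicate 2 none of the 9 was called, and without mock fl/fl replicate 3, tumor replicate 2 or tumor replicate 3 only Cstb was. The calls over all genes fell in the same fits from 632 to 30, 48, 77 and 69. Without tumor replicate 1, with 630 genes called, Ctsl lost its call (adjusted p = 0.07212) and Cst6 gained one. Against treated skin the same 3 were called higher in fl/fl tumors, where 18% of 15362 genes were called and 7.5% as higher, and leaving out any 1 library kept these 3. The median was 0.61 for the members and -0.02 for all genes. Without overlap, 4 members were higher and 1 (Ctsz) lower, against 21.9% and 24% of all genes. These 2 comparisons share the tumor libraries.

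In ΔK14 mice, 5 of the 8 members other than Cst6 rose in tumors over mock skin (Cstb, Lgmn, Ctsl, Ctsb and Ctsd) and none fell, where 14.3% of 15027 genes were called and 7.05% as higher. Their median log2 change was 1.04, and that of all genes was -0.06. The same 5 did not overlap between the groups, against 28.6% of all genes in the higher direction. The count was 0 without tumor replicate 2 or replicate 3, 3 without tumor replicate 1, 6 without mock replicate 1 (the 5 and Cst3, lower) and 7 without mock replicate 2 (the 5 with Cst3 and Ctsh, higher). Over all genes the calls went from 2144 to 101, 216, 406, 4573 and 3585 in these fits, in that order. Against treated ΔK14 skin, where 26% of 15289 genes were called, the 8 members are given without a test, and 5 of them were higher without overlap, against 28.4% of all genes. Ctsl had a log2 difference of 1.74 ± 0.34, Cstb 1.27 ± 0.25, Ctsd 1.27 ± 0.26, Ctsh 1.15 ± 0.47, Lgmn 1.01 ± 0.17, Ctsb 0.69 ± 0.16 and Cst3 0.47 ± 0.27, and Ctsz was the only one of the 8 below 0, at -0.87 ± 0.57.

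Treated skin against mock skin gave no called member in either genotype by the quasi-likelihood test, and 0% of 16601 genes in fl/fl and 0% of 15891 in ΔK14 were called. At an unadjusted p under 0.05 there were 3 of 9 in fl/fl (Cst6, Cstb and Ctsd) and 2 of 8 in ΔK14 (Cstb and Ctsd), where 5.5% and 4.8% of all genes had such a p. DESeq2 and the exact test each called 1 in fl/fl (Cst6), where they called 118 and 105 genes in all, and 0 in ΔK14. Cstb was 0.66 ± 0.20 and Ctsd 0.63 ± 0.19 log2 units above mock in fl/fl (adjusted p = 0.7872 for each). In ΔK14 the differences were 1.14 ± 0.32 for Cstb (adjusted p = 0.7248) and 0.95 ± 0.33 for Ctsd (adjusted p = 0.9139). Groups did not overlap for 3 of 9 members in fl/fl and 3 of 8 in ΔK14 (Cstb, Ctsd and Ctsb), all higher, against 5.42% and 7.8% of all genes. Without mock fl/fl replicate 1 the quasi-likelihood test called 3 members in fl/fl, namely Cst6 and Ctsz as higher and Ctsh as lower, while the calls over all genes went from 0 to 2587.

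**Figure D3:**
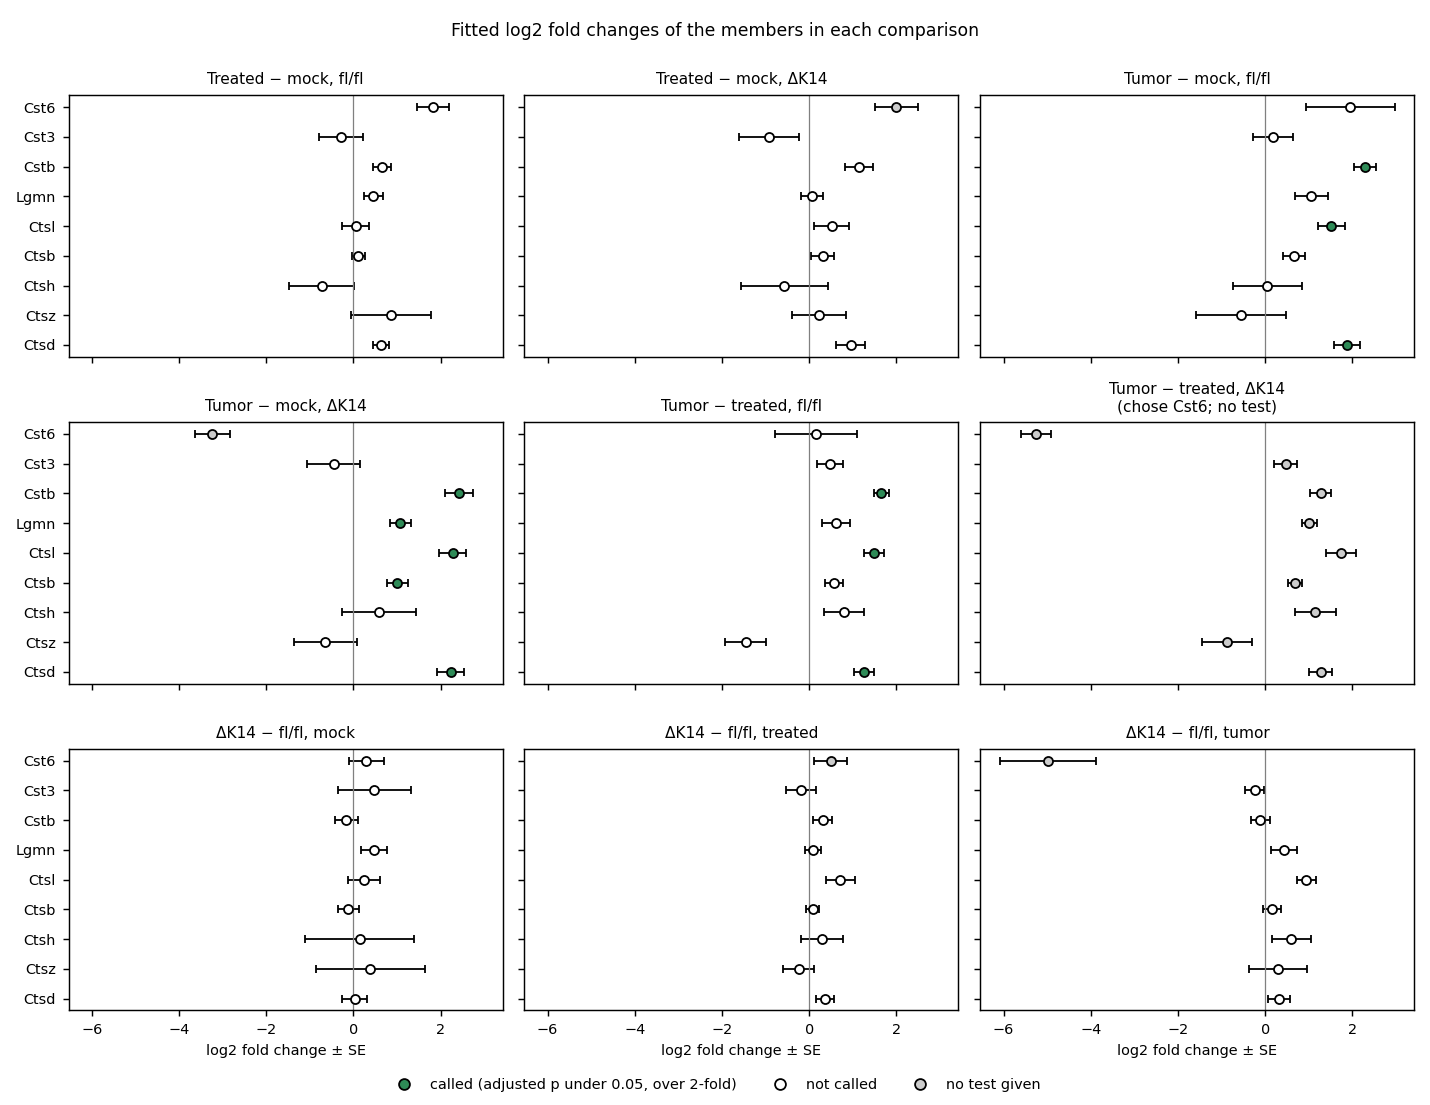
Fitted log2 fold changes with standard errors (x axis) of the 9 genes (y axis) in the 9 comparisons, with filled green points for called genes, open points for those not called and grey points where no test is given. The called points are Cstb, Ctsl and Ctsd in the 3 tested panels of tumors against skin, plus Lgmn and Ctsb for ΔK14 tumors against mock skin, and Cst6 is the lone point near -5 for ΔK14 tumors against treated skin and against fl/fl tumors.

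The ΔK14 genotype was compared with fl/fl at each stage. The quasi-likelihood test called 0 of 9 members in mock skin, 0 of 8 in treated skin and 0 of 8 in tumors, and DESeq2 and the exact test also called 0 at each stage. Background rates of the quasi-likelihood test were 0% of 15920 genes, 0.00616% of 16232 and 0.0284% of 14067, so few genes of any kind passed it. The rates of DESeq2 and the exact test between genotypes are not given here. At an unadjusted p under 0.05 the counts were 0, 0 and 1, where 1.59%, 5.55% and 14% of all genes had such a p. That gene was Ctsl in tumors, at 166, 247 and 268 CPM against 105, 107 and 109 CPM, or 0.94 ± 0.22 log2 units higher (1.92-fold, adjusted p = 0.1916). Lgmn also did not overlap between tumor genotypes (0.44 ± 0.30, adjusted p = 0.5375), as for 13.6% of all genes in that direction. The other 6 had log2 differences from -0.24 ± 0.22 (Cst3) to 0.60 ± 0.44 (Ctsh). Without fl/fl tumor replicate 1 the calls over all genes went from 4 to 2613, and Ctsh was then called at a log2 difference of 1.28 (adjusted p = 0.01226).

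In treated skin the 8 tested members had log2 differences between genotypes from -0.24 ± 0.36 (Ctsz) to 0.71 ± 0.33 (Ctsl, adjusted p = 0.9043), and Cst6 had 0.49 ± 0.37 without a test. None of the 8 was without overlap, against 5.77% of all genes in the higher and 5.93% in the lower direction. In mock skin Cst6 differed by 0.30 ± 0.41 (adjusted p = 1). There 1 of 9 members was higher without overlap (Lgmn) and 1 lower (Ctsb), against 6.97% and 5.58% of all genes. The change from mock skin to tumor was also compared between genotypes as an interaction, a test added after seeing the data. None of 8 members passed, with 0% of 17388 genes called, and the lowest adjusted p was that of Ctsl (0.6917, for a difference of 0.78 log2 units). For Cst6 the corresponding difference was -5.15 log2 units, without a test.

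Levels of different genes were compared only per length of transcript, as mean CPM per kilobase. In fl/fl tumors the order was Cstb (501 ± 31.1, SD, n = 3), Ctsd (278 ± 82.9), Cst3 (250 ± 58.2), Ctsb (89.0 ± 21.9), Ctsl (54.4 ± 0.961), Cst6 (37.3 ± 31.6), Ctsh (20.4 ± 13.5), Lgmn (18.7 ± 8.15) and Ctsz (3.74 ± 2.81). Neighbors from Ctsd to Cst3 and from Ctsl through Cst6 and Ctsh to Lgmn lay within their spread. In ΔK14 tumors Cst6 was last at 1.31 ± 0.206, below Ctsz at 4.74 ± 3.36. In mock fl/fl skin it stood at 9.59 ± 2.21, beside Lgmn at 8.72 ± 1.28. Cst6 has a transcript of 3951 bases, of which 3261 are untranslated region after the stop codon, so another transcript choice would change its place. Across the 17 libraries Cstb, Lgmn, Ctsl, Ctsb and Ctsd had pairwise r of log2 CPM from 0.79 to 0.94, Cst3 with Ctsh had 0.89, and Cst6 with Lgmn had -0.67. These are descriptions over libraries that fall into skin and tumor clusters.

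Stefin A genes, close relatives of Cstb that encode cytosolic inhibitors, differed more between fl/fl tumors and treated fl/fl skin than any member did. The list of other cystatins had 14 genes, and 6 of them, all of the stefin A cluster, were tested in the tumor comparisons. Of these 6, 5 were called higher in fl/fl tumors than in mock skin, 6 than in treated skin, and 6 in ΔK14 tumors than in mock skin, where 2.22%, 7.5% and 7.05% of all genes were. None was called lower, and none was called between treated and mock skin or between genotypes. BC100530 was at 0.888 to 7.86 CPM in mock fl/fl skin, 15.4 to 126 CPM in treated fl/fl skin and 618 to 2710 CPM in fl/fl tumors, a rise over treated skin of 4.18 ± 0.87 log2 units (adjusted p = 0.01428). Stfa1 was at 1.57 to 13.4 CPM in treated fl/fl skin and 101 to 440 CPM in fl/fl tumors (4.80 ± 0.86, adjusted p = 0.008463). BC117090 had at most 3 counts in any mock fl/fl library and 19.6 to 117 CPM in fl/fl tumors. It rose over treated skin by 5.23 ± 0.92 log2 units (adjusted p = 0.007846). The median of the 6 over treated fl/fl skin was 4.51, or 4.52 with Stfa2 at its bound, against -0.02 for all genes.

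In ΔK14 mice BC100530 went from 1.35 and 8.29 CPM in mock skin to 1340 to 1790 CPM in tumors (8.36 ± 0.81, adjusted p = 0.005675), and Stfa3 from 2.98 and 11.5 CPM to 782 to 1200 CPM (6.96 ± 0.68, adjusted p = 0.005799). Within fl/fl tumors, replicate 1 was highest for all 6 genes, with 169 CPM of Csta1 against 11.9 and 18.4 CPM, so the tumor lowest in Cst6 was highest in stefin A. These genes are near-identical copies, and how reads that match several of them were assigned is not stated, so single values are uncertain.

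**Figure D4:**
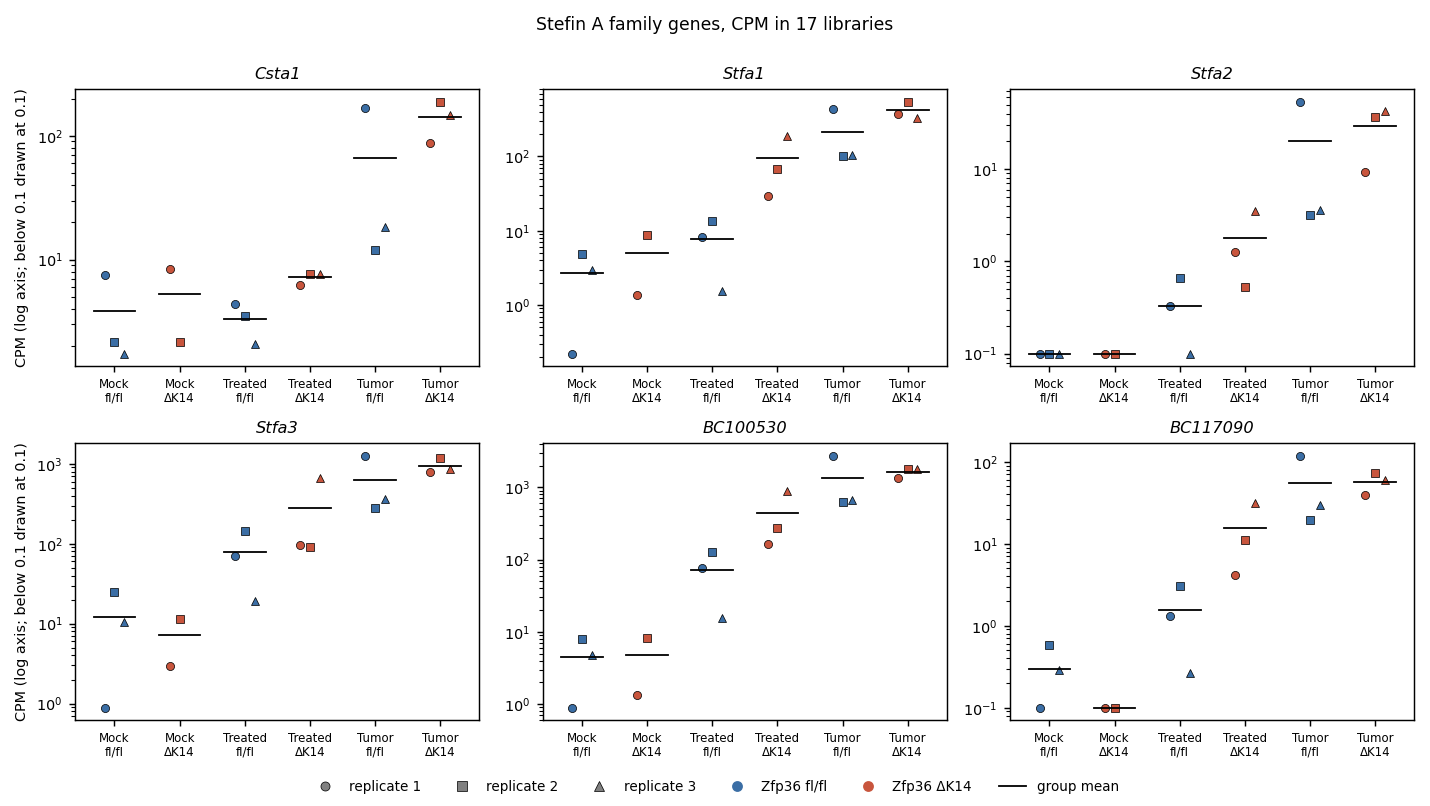
CPM on a log axis for 6 stefin A genes by group, with symbols for replicates and bars for group means, and values below 0.1 drawn at 0.1. All 6 are higher in each tumor than in each mock library, and fl/fl tumor 1 has the highest value among fl/fl tumors in every panel.

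Among other cathepsins (9 genes, 4 or 5 tested in the tumor comparisons) Ctsc was called higher and Ctsf lower. Ctsc, a dipeptidyl peptidase that activates granule proteases, was at 34.4 to 118 CPM in mock fl/fl skin, 87.3 to 99.9 CPM in treated fl/fl skin and 716, 329 and 404 CPM in fl/fl tumors. It rose by 2.79 ± 0.54 log2 units over mock (adjusted p = 0.03727) and 2.36 ± 0.30 over treated skin (adjusted p = 0.002872), and in ΔK14 tumors by 2.74 ± 0.48 over mock (adjusted p = 0.01891). Ctsf, a papain-like cathepsin, fell in fl/fl tumors by 1.51 log2 units below treated skin (SE 0.45, adjusted p = 0.04281) and in ΔK14 tumors by 1.79 below mock (SE 0.34, adjusted p = 0.02311). Ctss, a cathepsin of antigen-presenting cells, did not exceed 1.64 CPM in any library.

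Lysosomal genes outside the cathepsins (34, all tested) mostly did not pass. In fl/fl tumors 2 were called higher than in mock skin and 3 than in treated skin, and none lower, where 2.22% and 7.5% of all genes were called higher. In ΔK14 tumors 5 were called higher and 1 lower than in mock skin, where 7.05% of all genes were called higher. The list's median log2 change was 0.07, 0.07 and 0.37 in these comparisons. Npc2, a carrier of cholesterol out of lysosomes, rose over mock skin by 1.92 ± 0.24 log2 units in fl/fl tumors (adjusted p = 0.01244). Cd63, a membrane protein of late endosomes, rose by 1.61 ± 0.25 (adjusted p = 0.02193). M6pr, which sorts new hydrolases to lysosomes, rose in fl/fl tumors over treated skin by 1.02 ± 0.16 (adjusted p = 0.005722). Sort1, a further sorting receptor, fell in ΔK14 tumors by 2.23 log2 units below mock (SE 0.30, adjusted p = 0.0107). Sort1 split the fl/fl tumors as Cst6 did, with 3.51 CPM in replicate 1 and 61.2 and 103 CPM in replicates 2 and 3, beside 7.38 to 10.7 CPM in ΔK14 tumors.

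The enzymes and substrates of the cornified envelope, on which the cystatin M/E pathway acts, formed a list of 6 genes. Tgm1, a transglutaminase of the envelope, was called higher in fl/fl tumors than in treated skin (1.78 ± 0.22, adjusted p = 0.002488) and in ΔK14 tumors than in mock skin (2.82 ± 0.41, adjusted p = 0.01221). Its levels were 8.11 to 9.23 CPM in treated fl/fl skin, 26.9 to 35.6 CPM in fl/fl tumors and 51.0 to 58.4 CPM in ΔK14 tumors. No other gene of that list was called in any tested comparison. Tgm3, the transglutaminase downstream of cathepsin L, was at 62.2, 7.48 and 21.3 CPM in fl/fl tumors and 93.0, 95.3 and 33.4 CPM in ΔK14 tumors, overlapping with the skin libraries. Between genotypes no gene of any of these lists was called by the quasi-likelihood test.

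Macrophages hold much cathepsin, so markers of other cells are given beside the protease values. The summed leukocyte markers were 74.9 to 108 CPM in ΔK14 tumors and 25.0 to 39.6 CPM in fl/fl tumors, without overlap, and Cd74 accounted for 54.9 to 83.6 CPM of the former. The highest sum, 219 CPM, was in treated ΔK14 replicate 3, where Cd74 reached 172 CPM. The macrophage markers Adgre1 and Lyz2 did not exceed 0.589 and 2.72 CPM in any library, and Adgre1 was at 0 in 9 of 17. Csf1r and Cd68 ran from 1.70 to 5.32 CPM and from 1.86 to 9.40 CPM. Against mock skin, 1 of 5 tested leukocyte entries was called higher in ΔK14 tumors, where 7.05% of all genes were. In fl/fl tumors 0 of 4 were called. The fibroblast markers (6 genes) summed to 506 to 1680 CPM in mock fl/fl skin and 82.9 to 197 CPM in fl/fl tumors. Of the 6, 4 were called lower, where 4.11% of all genes were called in either direction. In ΔK14 mice they summed to 994 and 1040 CPM in mock skin and 30.4 to 386 CPM in tumors. There 1 of 6 was called lower, where 14.3% of all genes were called in either direction. The melanocyte markers (Dct, Tyr, Tyrp1, Pmel and Mlana) summed to 41.1 to 366 CPM in the skin libraries and 8.85 to 38.2 CPM in the tumors, and only Pmel had counts in fl/fl tumors 1 and 3. Of the 4 melanocyte markers tested against mock skin, 1 was called lower in fl/fl tumors and 0 in ΔK14 tumors. The melanocyte sums were 319 and 279 CPM in mock replicate 1 of the 2 genotypes, where Ctsz was also high. The other mock libraries had 41.1 to 93.3 CPM. Of skin after treatment, ΔK14 replicate 1 had both the highest melanocyte sum, 366 CPM, and the highest Ctsz, 17.9 CPM. The other treated libraries did not keep this order. Treated fl/fl replicates 1 to 3 had sums of 103, 130 and 52.7 CPM, with Ctsz at 11.4, 13.6 and 15.3 CPM. Treated ΔK14 replicates 2 and 3 had sums of 51.6 and 52.7 CPM, with Ctsz at 10.7 and 6.09 CPM. The markers of differentiated keratinocytes (4 genes) summed to 708 and 602 CPM in mock replicate 1, where Ctsh was low, against 5890 to 7910 CPM in the other mock libraries. The part of these cells in the protease values was not tested.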

How the data were processed

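Epidermal cells of 6 groups were sequenced with the Ovation SoLo RNA-Seq kit. The authors deposited raw counts per gene. The submitters' processing notes name mm10, Trimmomatic 0.36, STAR 2.5.3, HTSeq 0.9.1 and DESeq2, without role. Annotation release, strand use and duplicate removal are not given in the sources used here. PCR duplicates are not independent molecules, so a floor of 3 counts covers counting error only.

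The analysis used edgeR 4.0.16 and limma 3.58.1 under R 4.3.3. Only the libraries of the groups compared entered each fit, with filterByExpr, TMM scaling and the two-sided quasi-likelihood test, Benjamini-Hochberg adjusted over all genes tested. Calls needed an adjusted p under 0.05 and a fold over 2. CPM used TMM-scaled library sizes, and r used log2 CPM with a prior count of 2. SE after a log2 difference is the size of that difference divided by the square root of its quasi-likelihood F statistic. Alternatives were DESeq2 1.42.0, the exact test of edgeR, 1 model for all 17 libraries, scaling by RLE, dropping the filter on low counts, a block for replicate number, and omission of each library in turn. The interaction, and leaving out replicate 1 of both mock groups, were added after seeing the data. Procedures were tested on simulated data.

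Positions, lengths and 3′ untranslated regions came from GENCODE M21 (GRCm38), with the best-supported transcript for length. The members and lists were chosen with earlier results of these data known. All members were named, with up to 3 called genes per list, direction and comparison, the 5 genes most like Cst6, and Zfp36. Scd1, Plin2, Tgm3, Ctss, Csta1, the cell type markers given singly and Sort1 in fl/fl tumors were named after their values were seen, and not every gene that met the rule is described.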

Additional observations from a re-analysis of the deposited data

How the results depend on the processing

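Low counts limit Cst6 in tumors with 9 to 32 counts, and 2 mock ΔK14 libraries limit every test against that group. The number of members called was 1 between tumor genotypes without the low-count filter (Ctsl), where 1393 genes were called in all, against 4 with the filter. It was 1 for treated against mock fl/fl skin by DESeq2 and by the exact test (Cst6), where 118 and 105 genes were called in all. Spearman's rho kept 3 of the 5 genes most like Cst6. With 1 library left out, the counts of called members ran from 0 to 1 between tumor genotypes (1 without fl/fl replicate 1), 0 to 3 for treated against mock fl/fl skin (3 without mock replicate 1), 0 to 3 for fl/fl tumors against mock skin, 3 to 4 against treated skin, and 0 to 7 for ΔK14 tumors against mock skin. Leaving out replicate 1 of both mock groups set 1 ΔK14 library, assumed to vary like the fl/fl libraries, against 2, and called 0 members and 1 gene in all.

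No comparison with 3 same-numbered pairs had them all deviate together (in tumors of the 2 genotypes r was 0.14, 0.25 and -0.07). Deviations from the mean of so few libraries cancel within a group, so this check cannot exclude pairing. In mock skin, with 2 pairs, r was 0.78 and 0.57. Mock ΔK14 replicate 2 had a higher r, 0.72, with a differently numbered fl/fl library. The deviations of the 2 mock ΔK14 libraries mirror each other, so these values of r are not independent. With the replicate number as a block, 3 members (Cstb, Ctsl and Ctsd) were called in ΔK14 tumors against mock skin. There 938 genes were called in all, against 2144 without the block. In fl/fl tumors against mock skin the block left 2 called (Cstb and Ctsd, with Ctsl at an adjusted p of 0.07627). The number of all genes called in that fit is not given here, so a general loss of calls cannot be told from one of Ctsl. Under the block, log2 differences changed sign for Ctsz in fl/fl tumors against mock (0.19), Cst6 in fl/fl tumors against treated skin (-0.28), Lgmn in treated against mock ΔK14 skin (-0.02) and Cst3 in ΔK14 tumors against mock (0.04). Without the low-count filter the sign changed for Ctsd between mock genotypes (-0.04), Cstb between tumor genotypes (0.07, and 0.02 in a single fit of all libraries) and Ctsh in fl/fl tumors against mock (-0.03). The cause was not tested.

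Leaving out a library turned the sign of these differences, none called with all libraries, within the ranges given. Between mock genotypes they were Cst3 (-1.26 to 1.23), Cst6 (-0.37 to 0.75), Ctsd (-0.08 to 0.22), Ctsh (-2.59 to 1.04) and Ctsz (-0.57 to 2.59). Between treated genotypes they were Cst3 (-0.51 to 0.17), Ctsh (-0.28 to 0.67), Ctsz (-0.68 to 0.09) and Lgmn (-0.04 to 0.20). Between tumor genotypes they were Cstb (-0.24 to 0.08) and Ctsz (-0.39 to 1.0). For treated against mock skin they were Cst3 (-0.65 to 0.03) and Ctsl (-0.21 to 0.36) in fl/fl, and Cst3 (-1.66 to 0.81), Ctsh (-1.45 to 2.17), Ctsz (-0.30 to 1.20) and Lgmn (-0.02 to 0.18) in ΔK14. For tumors against mock skin they were Cst3 (-0.20 to 0.45), Ctsh (-0.60 to 0.40) and Ctsz (-1.30 to 1.57) in fl/fl, and Cst3 (-1.15 to 1.32), Ctsh (-0.26 to 3.36) and Ctsz (-1.33 to 0.39) in ΔK14. Cst6 in fl/fl tumors against treated skin ran from -0.34 to 0.71.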
